A study of Homo sapiens with 4 samples.

Results

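The genes described here are the CDK inhibitors CDKN1A, CDKN1B, CDKN1C, CDKN2A, CDKN2B, CDKN2C, CDKN2D and CDKN3, together with MTAP, the neighbour of CDKN2A in the 9p21 locus. They were chosen by name: the Ensembl gene IDs of the count table that map to these symbols gave 9 genes of the 20263 measured. Messenger RNA was sequenced from MDA-MB-231 cells, an established human breast cancer line of the triple-negative, mesenchymal kind, after 24 h with Rib_CA or with the solvent DMSO. The series title calls Rib_CA a derivative of ribociclib, an inhibitor of CDK4 and CDK6, and places the study's question in apoptosis of breast cancer cells. The dose of Rib_CA is not given in the sources used here. Each group has 2 libraries, called DMSO 1, DMSO 2, Rib_CA 1 and Rib_CA 2. All 4 libraries come from 1 line, which is widely recorded as having lost CDKN2A. The labels do not say whether the libraries of a group came from separate cultures, so the p-values below reflect the scatter among these libraries alone, some of which could be technical.

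CDK inhibitors are small proteins that bind cyclin-dependent kinases and hold back the cell cycle. The CIP/KIP members (CDKN1A encoding p21, CDKN1B encoding p27, CDKN1C encoding p57) bind CDK2 and other cyclin complexes, while the INK4 members (CDKN2A encoding p16, CDKN2B encoding p15, CDKN2C encoding p18, CDKN2D encoding p19) bind only CDK4 and CDK6. CDKN3 is a phosphatase that removes the activating phosphate from CDK2. MTAP cleaves methylthioadenosine in the methionine salvage pathway and is often lost together with CDKN2A in tumours.

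The libraries held 34774542 to 38865103 counts over all genes. A library's scaled level is given as TMM CPM, counts relative to the library total in the usual counts-per-1e6 unit, after edgeR's trimmed-mean scaling. Of the 13667 genes with enough counts to be tested, 275 were higher and 699 lower in Rib_CA at an adjusted p under 0.05 (edgeR's quasi-likelihood test, Benjamini-Hochberg adjustment). With scaling by total counts alone, 260 were higher and 328 lower, and the median log2 fold change of all tested genes moved from 0.03 to 0.23. Mitochondrially encoded genes took 8.68% and 21.7% of the counts in DMSO 1 and 2, and 5.79% and 3.13% in Rib_CA 1 and 2. Marker levels in this paragraph are CPM by total counts, without TMM scaling, while the fold changes use TMM. Markers of mesenchymal breast cancer cells (VIM, CD44, EGFR, CAV1, ZEB1) summed to 5679 and 5689 CPM in DMSO. In Rib_CA they summed to 5436 and 5826 CPM, and VIM made up most of the sum in each library. All 5 had negative log2 fold changes, with ZEB1 called lower (-1.70, edgeR adjusted p 0.0287) and CAV1 at -1.03 (0.0808). CDH1, the epithelial cadherin, had at most 3 counts, and ESR1 had 4 to 23. Markers of luminal cells summed to 151 and 128 CPM in DMSO and to 214 and 300 CPM in Rib_CA. Most of this difference was CLDN4, called higher, which went from 50.7 and 40.0 CPM to 102 and 213 CPM. Of the 6 luminal markers tested, 4 had positive log2 fold changes and 2 negative. The negative ones were PGR (-1.87, edgeR adjusted p 0.0962) and GATA3 (-1.14, 0.310). CD3E and COL1A2 had no counts, fibroblast markers summed to 5.43 to 10.4 CPM, and endothelial markers to 0.768 to 1.47 CPM. Leukocyte markers summed to 161 to 295 CPM, nearly all from CD68, while PTPRC lay at 0.633 CPM or less. The part of these shares and markers in the results below was not tested, apart from a fit without the mitochondrially encoded genes. In bulk RNA, fewer cells of a type and less RNA per cell cannot be told apart.

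Of the 9 genes, 6 had counts in every library and 3 had none in any. The 6 measured genes had at least 104 counts in each library, so none of them passed the filter through 1 group alone. CDKN1A was the one member that changed at an adjusted p under 0.05, and it rose. This is 1 of 6 tested, where 2.01% of all tested genes were called higher. No member was called lower by edgeR, where 5.11% of all tested genes were. At an unadjusted p under 0.05, 2 members (CDKN1A and CDKN2D) were higher and 1 (CDKN3) lower, beside 13.7% and 14.7% of all tested genes. DESeq2 called 1 member higher (CDKN1A, against 7.23% of all genes with an adjusted p) and 1 lower (CDKN3, against 10.6%), and limma-voom called 1 higher (against 1.64%) and 0 lower (against 4.81%). Both Rib_CA libraries lay above both DMSO libraries for 4 members, and below both for 2. Such a separation is common here: it held upward for 30.4% and downward for 28.4% of all tested genes. The median log2 fold change of the 6 was 0.70, beside 0.03 for all tested genes.

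**Figure D1:**
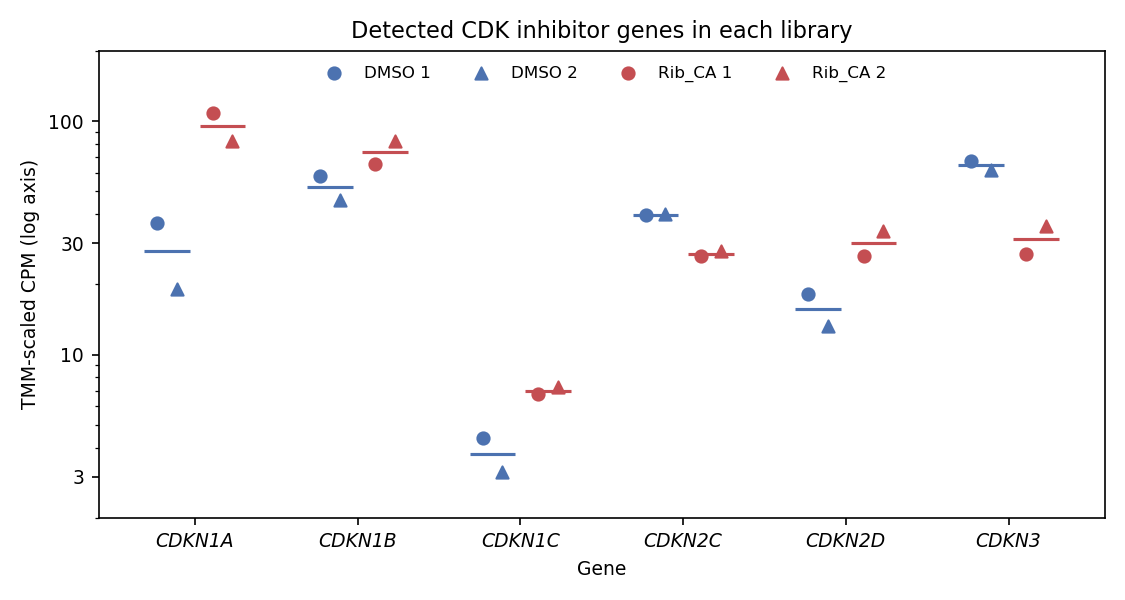
TMM CPM (log axis) of the 6 measured CDK inhibitor genes in each library, DMSO 1 and 2 and Rib_CA 1 and 2, with 1 point per library and a line at the group mean. CDKN1A spans 19.0 to 108 CPM, and the points of the Rib_CA and DMSO groups do not overlap for any of the 6 genes.

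CDKN1A lies on the forward strand at chr6:36676460-36687339 (GENCODE 29, GRCh38) under the ID ENSG00000124762. It encodes p21, which blocks CDK2 complexes and also binds PCNA. Its level was 36.5 CPM in DMSO 1, 19.0 in DMSO 2, 108 in Rib_CA 1 and 81.9 in Rib_CA 2. Both Rib_CA libraries stood above both DMSO libraries, and DMSO 2 was well below DMSO 1. The group means were 27.8 ± 12.3 CPM and 95.2 ± 18.8 CPM (SD, n = 2 each). CDKN1A rose 3.43-fold, with a log2 fold change of 1.78 ± 0.38 (SE) and an adjusted p of 0.0443 by edgeR's quasi-likelihood test. It ranked 298 of 13667 from the largest increase. Without the mitochondrially encoded genes the log2 fold change was 1.81 (edgeR adjusted p 0.0354). The call was lost without DMSO 2, at 2.60-fold and an edgeR adjusted p of 0.204, and after each library was corrected for GC content and transcript length, at 2.40-fold and 0.119.

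RefSeq promoter windows (GRCh38.p14, the 250 bases before a transcript start) were found for 8 of the 9 members, 11 windows in all. They are shown for CDKN1A, the member that rose, CDKN3, the measured member with the largest decrease, and CDKN2D, the INK4 member with the largest increase. Only the stretch of each window outside annotated exons is printed, 5′ to 3′ on the gene's strand, and capitals mark GGGCGG (the GC box bound by SP1 and related factors) and CCAAT (the box bound by NF-Y), searched on both strands with overlapping matches counted. The stretches are chr6:36678560-36678657 (+, 98 bases) for CDKN1A, chr19:10569060-10569229 (-, 170 bases) for CDKN2D and chr14:54396757-54396848 (+, 92 bases) for CDKN3.
CDKN1A: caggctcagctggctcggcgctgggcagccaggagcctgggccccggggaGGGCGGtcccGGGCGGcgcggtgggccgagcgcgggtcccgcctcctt
CDKN2D: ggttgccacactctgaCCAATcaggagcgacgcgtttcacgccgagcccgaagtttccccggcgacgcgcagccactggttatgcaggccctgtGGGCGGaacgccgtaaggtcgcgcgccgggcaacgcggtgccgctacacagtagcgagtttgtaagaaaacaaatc
CDKN3: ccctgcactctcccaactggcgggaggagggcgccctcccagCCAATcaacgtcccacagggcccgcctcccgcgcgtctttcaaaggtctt
The whole CDKN1A window held 4 GC boxes and no CCAAT. The CDKN2D window held 2 GC boxes and 1 CCAAT, and the CDKN3 window held 2 CCAAT and no GC box. Over 35116 RefSeq windows of the same length, 42.6% held a GC box and 32.0% held CCAAT. Among the 11 windows of these genes, 8 held a GC box and 5 held CCAAT. A match describes letters and does not show that a factor binds there.

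CDKN1B (ENSG00000111276, chr12:12715058-12722371, forward strand) encodes p27, which is controlled largely through degradation of the protein. Its level was 58.2 and 46.1 CPM in DMSO 1 and 2, and 65.6 and 82.5 CPM in Rib_CA 1 and 2. The Rib_CA libraries were the higher ones, with a gap between the groups that is smaller than the spread within either. The log2 fold change was 0.51 ± 0.28 (SE; edgeR adjusted p 0.283). CDKN1C (ENSG00000129757, chr11:2883213-2885773, reverse strand) encodes p57 and is imprinted, with expression mainly from the maternal copy. It was the lowest of the measured members, at 4.38 and 3.16 CPM in DMSO and 6.76 and 7.25 CPM in Rib_CA. The groups did not overlap, and the log2 fold change was 0.89 ± 0.39 (edgeR adjusted p 0.188). After the correction for GC content and length it was 0.24. The longest CDKN1C transcript is 63.8% G and C, the highest of the 9 genes.

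Within the CIP/KIP genes, the share of counts moved towards CDKN1A. CDKN1A took 36.8% and 27.9% of the counts of the CIP/KIP members in DMSO 1 and 2, and 59.99% and 47.7% in Rib_CA 1 and 2. CDKN1B took 58.8% and 67.5%, then 36.3% and 48.1%, while CDKN1C stayed between 3.74% and 4.63%. The ratio of CDKN1A to CDKN1B counts, which does not depend on how libraries are scaled, was 0.627 and 0.413 in DMSO and 1.65 and 0.992 in Rib_CA. Such a ratio is not corrected for GC content or transcript length. After that correction the log2 fold changes were 1.26 for CDKN1A and 0.42 for CDKN1B, against 1.78 and 0.51 before it. The within-library ratios here and below are given without a test; with 2 against 2 libraries the smallest two-sided p of an exact permutation test is 0.333.

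CDKN2C and CDKN2D, the INK4 genes outside 9p21, were both measured and lay on opposite sides of 0. CDKN2C (ENSG00000123080, chr1:50960745-50974633, forward strand) was at 39.4 and 40.2 CPM in DMSO and at 26.3 and 27.6 CPM in Rib_CA. The libraries of a group were close to each other and the groups were apart, with Rib_CA the lower one. Its log2 fold change was -0.56 ± 0.26 (SE), 1.47-fold lower, and did not pass (edgeR adjusted p 0.213). CDKN2D (ENSG00000129355, chr19:10566462-10569059, reverse strand) was at 18.3 and 13.2 CPM in DMSO and at 26.4 and 33.9 CPM in Rib_CA. Rib_CA was the higher group here, without overlap. Its log2 fold change was 0.94 ± 0.31, 1.91-fold higher, with an edgeR adjusted p of 0.114. With each library left out in turn, CDKN2D ranged from 1.65-fold to 2.27-fold higher. After the correction for GC content and length the value was 1.19-fold (0.669) for CDKN2D and -0.95 on the log2 scale (0.102) for CDKN2C.

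The balance between the INK4 genes outside 9p21 therefore differed between the groups within each library. CDKN2D counts were 0.463 and 0.330 of CDKN2C counts in DMSO, and 1.005 and 1.22 of them in Rib_CA. The mean log2 ratio was 1.51 higher in Rib_CA, a wider difference than between the libraries of either group. CDKN2D and CDKN2C transcripts are alike in GC content, at 61.3% and 58.1% in the longest transcript, but differ in exonic length, 1503 against 3318 bases.

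CDKN3 (ENSG00000100526, chr14:54396849-54420218, forward strand) is transcribed mainly in dividing cells. Its level was 67.2 CPM in DMSO 1, 61.9 in DMSO 2, 26.9 in Rib_CA 1 and 35.5 in Rib_CA 2. Both Rib_CA libraries were below both DMSO libraries by a margin wider than the spread within a group. The log2 fold change was -1.05 ± 0.28 (SE), 2.07-fold lower, and missed the threshold with an edgeR adjusted p of 0.0704. It passed with DESeq2 (adjusted p 0.0106). With each library left out in turn, the edgeR log2 fold change ranged from -1.27 to -0.90. The correction for GC content and length left it at -1.09 (0.0827).

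**Figure D2:**
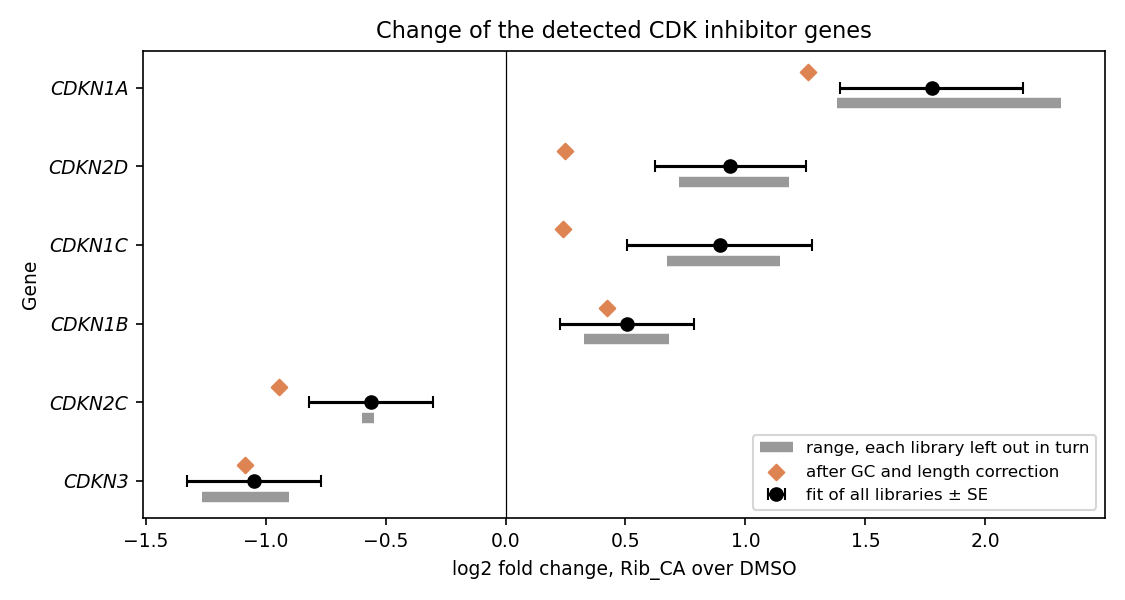
Log2 fold change (Rib_CA minus DMSO) of the 6 measured CDK inhibitor genes, with the edgeR estimate and its SE (black), the range of estimates with each library left out in turn (grey bar), and the estimate after the correction for GC content and transcript length (diamond). CDKN1A lies furthest right at 1.78 and CDKN3 furthest left at -1.05, and the corrected values of CDKN1C and CDKN2D lie near 0.24 and 0.25.

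Levels of different genes were compared per kilobase of exonic sequence. In TMM CPM per kilobase, CDKN3 had the highest level of the 6 genes in both DMSO libraries, 36.6 and 33.7. CDKN1B followed at 20.7 and 16.4, and CDKN1C was the lowest at 1.77 and 1.27. In DMSO, CDKN1A (11.96 and 6.24), CDKN2C (11.9 and 12.1) and CDKN2D (12.1 and 8.81) overlapped and had no fixed order. In Rib_CA, CDKN1A (35.6 and 26.8) and CDKN1B (23.3 and 29.4) overlapped and changed places between the libraries. CDKN2D (17.6 and 22.5) came below both, and CDKN3 (14.6 and 19.3) was below CDKN2D in each library although their ranges overlapped, while CDKN2C (7.93 and 8.33) and CDKN1C (2.73 and 2.93) stood below them. With the length of the longest transcript in place of all exonic bases, CDKN1A had the highest level in both Rib_CA libraries and CDKN3 came next. Of the summed level per kilobase of the 6 genes, CDKN3 made up 38.5% and 42.9% in DMSO and 14.4% and 17.7% in Rib_CA. CDKN1A made up 12.6% and 7.95% in DMSO and 34.9% and 24.6% in Rib_CA.

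**Figure D3:**
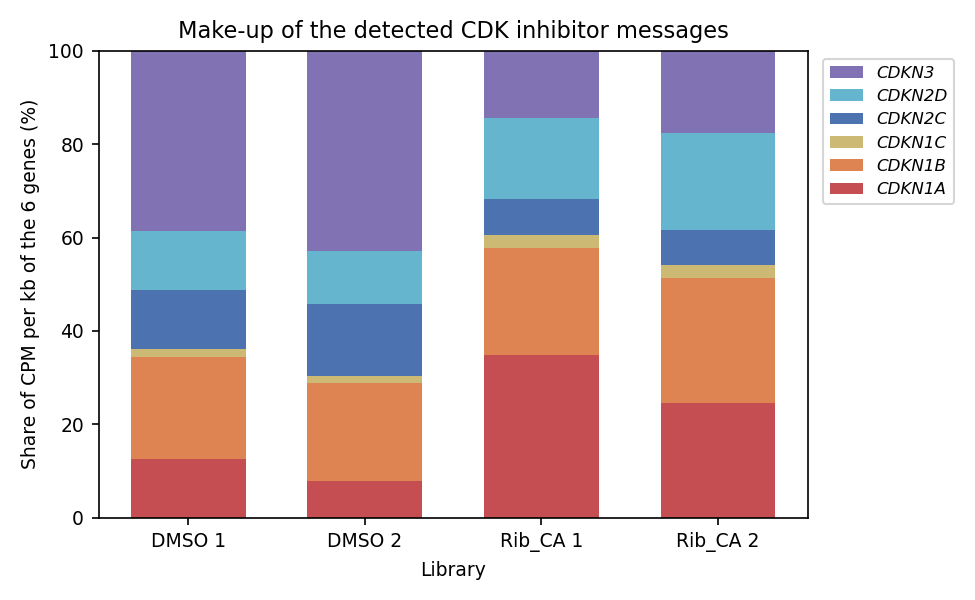
Share (percent) of the summed TMM CPM per kilobase of exonic sequence that each of the 6 measured genes takes in DMSO 1, DMSO 2, Rib_CA 1 and Rib_CA 2. CDKN3 takes 38.5% and 42.9% in DMSO and 14.4% and 17.7% in Rib_CA, and CDKN1A takes 34.9% and 24.6% in Rib_CA.

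The members in the 9p21 locus were at 0. CDKN2A (ENSG00000147889, chr9:21967753-21995301, reverse strand), CDKN2B (ENSG00000147883, chr9:22002903-22009363, reverse strand) and MTAP (ENSG00000099810, chr9:21802543-21937651, forward strand) had 0 counts in DMSO 1, DMSO 2, Rib_CA 1 and Rib_CA 2. They could not be tested and give no fold change. Over 149166079 counts in the 4 libraries, a count of 0 allows a level of up to 0.0201 CPM (3 counts) if counts are independent. This bound covers counting error only. Low counts here were mostly even numbers, so the true bound may be higher. MTAP is transcribed in most tissues, so a level of 0 is unlike its usual pattern, whereas CDKN2A and CDKN2B are low in many normal cells. MTAP shares 460 exonic bases (3.15% of its own) with a readthrough gene on the same strand, ENSG00000264545, which also had 0 counts.

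The genes at 0 formed an unbroken stretch on chromosome 9. In the order of the table's genes along the chromosome, 25 neighbours from HACD4 to IZUMO3 had 0 counts in every library, chr9:20999515-24545946, a span of 3.55 Mb. They were 16 interferon genes, which most unstimulated cells do not transcribe, and 9 others: HACD4, KLHL9, MTAP, ENSG00000264545, CDKN2A, CDKN2B, DMRTA1, ELAVL2 and IZUMO3. The stretch was bounded by FOCAD, with 117, 86, 91 and 121 counts in the order DMSO 1, DMSO 2, Rib_CA 1, Rib_CA 2, and by TUSC1, with 260, 250, 356 and 506 counts. FOCAD starts 1.34 Mb before CDKN2A and TUSC1 starts 3.68 Mb after it. Genes at 0 are not rare: 20.2% of the table's genes had no count in any library. Among 1930 stretches of such genes on the autosomes and X, this was tied for place 9 by number of genes and held place 10 by length, and the 5 with most genes held immunoglobulin, T cell receptor or olfactory receptor genes. DNA copy number was not measured, so a lost locus and a silent one cannot be told apart from these counts. CDKN2B-AS1 was not analysed here.

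**Figure D4:**
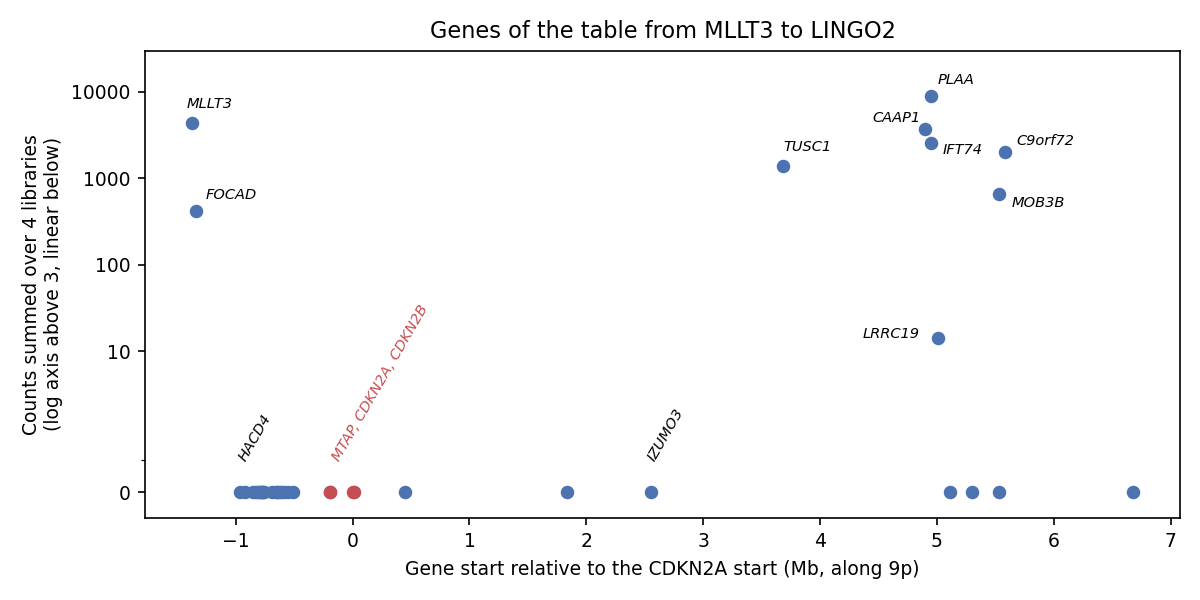
Total counts over the 4 libraries (axis linear up to 3 counts and log above) of the table's genes around CDKN2A, by distance of each gene's start from the CDKN2A start in Mb. The members CDKN2A, CDKN2B and MTAP are marked; the 25 genes between FOCAD at -1.34 Mb and TUSC1 at 3.68 Mb lie at 0.

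Of the 37 listed 9p genes found in the table, 9 had counts, all of them outside the stretch, and 8 were tested. TEK, EQTN, IFNK and LINGO2, which lie beyond TUSC1, also had 0 counts in every library. 2 of the 8 passed, both lower, where 5.11% of all tested genes were called lower. The median log2 fold change over the 8 was -0.28. MLLT3, a subunit of the super elongation complex, fell from 51.9 and 44.5 CPM to 11.7 and 15.1 CPM, a log2 fold change of -1.85 ± 0.29 (edgeR adjusted p 0.0287). IFT74, a component of intraflagellar transport, fell from 25.0 and 29.1 CPM to 8.50 and 9.73 CPM, a log2 fold change of -1.57 ± 0.29 (0.0331). The values of TUSC1 and PLAA were 0.47 and -0.34 on the log2 scale and did not pass.

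The kinases and cyclins that the inhibitors bind were all measured, and PCNA, which p21 binds, was listed with them. Of 13 genes, 1 passed the test, as a decrease, where 5.11% of all tested genes were called lower. It was CCNE2, which encodes the cyclin E2 partner of CDK2. CCNE2 was at 66.0 and 59.8 CPM in DMSO and fell to 18.4 and 15.3 CPM in Rib_CA (log2 fold change -1.90 ± 0.28, edgeR adjusted p 0.0285). 9 of the 13 had negative values, and the median was -0.36. CCNA2, which encodes cyclin A2, had a log2 fold change of -1.22 and just missed the threshold (edgeR adjusted p 0.0519). CDK4 was at 59.8 and 59.1 CPM in DMSO and 121 and 114 CPM in Rib_CA, and CDK6 at 98.3 and 66.0, then 36.3 and 41.0 CPM. These targets of ribociclib lay on opposite sides of 0, at 0.98 ± 0.24 (edgeR adjusted p 0.0605) for CDK4 and -1.09 ± 0.30 (0.0765) for CDK6, and neither passed. With each library left out in turn, the log2 fold change ranged from 0.89 to 1.02 for CDK4 and from -1.35 to -0.78 for CDK6. After the correction for GC content and length CDK6 was at -0.04. CDK2 was at 81.3 and 58.2 CPM in DMSO and 61.1 and 59.7 CPM in Rib_CA, groups that overlap (log2 fold change -0.21 ± 0.28, edgeR adjusted p 0.673).

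Set against their kinases within each library, the members differed in different directions. CDKN1A counts were 0.449 and 0.327 of CDK2 counts in DMSO, and 1.77 and 1.37 of them in Rib_CA. CDKN3 counts were 0.826 and 1.06 of CDK2 counts in DMSO, and 0.439 and 0.595 of them in Rib_CA. CDKN2C stood at 0.401 and 0.609 of CDK6 counts in DMSO and at 0.725 and 0.674 in Rib_CA. That direction depended on the processing. After the correction for GC content and length the log2 fold changes were -0.95 for CDKN2C and -0.04 for CDK6, so CDKN2C fell relative to CDK6. For CDKN2D against CDK4 the groups overlapped, with 0.305 and 0.224 in DMSO and 0.219 and 0.297 in Rib_CA. The ratios of CDKN1A and CDKN3 to CDK2, and of CDKN2C to CDK6, did not overlap between the groups, while CDKN2D and CDK4 kept about the same balance. How often the ratios of other gene pairs separate the groups was not tested. INK4 proteins bind both CDK4 and CDK6, and the other pairings moved differently. CDKN2D had 633 and 436 counts in DMSO and 1036 and 1457 in Rib_CA, against 3408 and 2173, then 1422 and 1766, for CDK6. CDKN2C had 1367 and 1323, then 1031 and 1190, against 2074 and 1947, then 4737 and 4902, for CDK4.

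Regulators known to act on transcription of the CIP/KIP genes gave 3 increases among 21 tested genes. Of all tested genes, 2.01% were called higher. This list, like the members and the other lists, was chosen with earlier results of these data known. The shares are therefore set side by side as a description only. CEBPB, a stress-responsive bZIP factor, rose from 54.8 CPM in both DMSO libraries to 241 and 275 CPM (log2 fold change 2.24 ± 0.26, edgeR adjusted p 0.0285). KLF4, which can activate CDKN1A, rose from 51.9 and 68.1 CPM to 182 and 173 CPM (1.56 ± 0.27, 0.0297). ATF4, the main factor of the integrated stress response, rose from 414 and 371 CPM to 945 and 911 CPM (1.24 ± 0.27, 0.0443). The median of the 21 was 0.03, the same as over all tested genes, with 11 positive and 10 negative values. TP73, a transcription factor that can activate CDKN1A, was at 7.32 and 11.5 CPM in DMSO and 3.55 and 2.60 CPM in Rib_CA, and did not pass (0.0669). MYC, which represses CDKN1A and CDKN2B through ZBTB17, was at 8.16 and 29.1 CPM in DMSO and 40.5 and 24.3 CPM in Rib_CA, so its groups overlapped.

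Genes for the degradation of CIP/KIP proteins gave 1 change among 13 tested, a decrease, where 5.11% of all tested genes were called lower. DTL, the CRL4 substrate receptor that marks p21 for degradation on chromatin-bound PCNA, fell from 105 and 120 CPM to 45.8 and 42.5 CPM (log2 fold change -1.35 ± 0.25, edgeR adjusted p 0.0334). SKP2, the F-box protein that marks p27, was at 34.5 and 26.5 CPM in DMSO and at 16.0 and 16.7 CPM in Rib_CA. The SKP2 groups were apart, yet the value of -0.90 ± 0.29 did not pass (0.105). CDKN1B counts were 1.69 and 1.74 times SKP2 counts in DMSO and 4.10 and 4.96 times in Rib_CA. After the correction for GC content and length the log2 fold changes were 0.42 for CDKN1B and -0.41 for SKP2. The median of the 13 genes was -0.23, and 9 were negative.

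Of the Polycomb and other regulators of the INK4 genes, 15 of 17 were tested and 1 changed. It was called lower, as were 5.11% of all tested genes. SUZ12, a core subunit of Polycomb repressive complex 2, fell from 129 and 98.9 CPM to 44.6 and 41.2 CPM (log2 fold change -1.41 ± 0.27, edgeR adjusted p 0.0350). EZH2, the methyltransferase of that complex, was at 104 and 115 CPM in DMSO and 50.4 and 56.6 CPM in Rib_CA and missed the threshold (0.0581). KDM6B, a demethylase of the same mark, was at 1.32 ± 0.45 and did not pass (0.120). The value rests largely on Rib_CA 1: without it KDM6B was 1.44-fold higher (log2 0.52), and without Rib_CA 2 KDM6B was 3.52-fold higher. The median of the 15 was 0.02, and CDKN2A and CDKN2B remained at 0 counts in both groups.

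Around MTAP, 13 of the 14 genes of methionine salvage and polyamine synthesis were tested, MTAP being the one at 0. AMD1, the decarboxylase that supplies polyamine synthesis, fell from 56.0 and 63.9 CPM to 21.2 and 25.5 CPM (log2 fold change -1.36 ± 0.27, edgeR adjusted p 0.0386). ADI1, which acts downstream of MTAP in salvage, was at 35.4 and 55.3 CPM in DMSO and 106 and 109 CPM in Rib_CA, a value of 1.25 ± 0.30 that did not pass (0.0571). AHCY and ODC1 did not pass, and their groups overlapped. With a library left out, ODC1 ranged from 0.99-fold to 1.98-fold. PRMT5, the arginine methyltransferase that methylthioadenosine inhibits, was named after its values were seen. It was at 162 and 185 CPM in DMSO and 219 and 150 CPM in Rib_CA, groups that overlap. The median of the 13 was 0.19.

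Each of the 9 (CCNE2, CEBPB, KLF4, ATF4, DTL, SUZ12, AMD1, MLLT3, IFT74) was lost after the correction for GC content and length and without at least 1 DMSO library. Corrected log2 fold changes were -1.32 for CCNE2, 1.58 for CEBPB, 1.23 for KLF4, 0.73 for ATF4, -0.87 for DTL, -0.75 for SUZ12, -0.75 for AMD1, -1.10 for MLLT3 and -1.25 for IFT74. CCNE2, CEBPB and MLLT3 were lost without DMSO 1, and the other 6 were lost without either DMSO library. The sizes stayed close: without DMSO 1 the log2 fold changes were -1.84 for CCNE2, 2.23 for CEBPB and -1.74 for MLLT3. Without DMSO 1 or DMSO 2 they were 1.38 and 1.77 for KLF4, 1.32 and 1.16 for ATF4, -1.45 and -1.26 for DTL, -1.21 and -1.59 for SUZ12, -1.46 and -1.27 for AMD1, and -1.68 and -1.46 for IFT74. With total counts alone DTL, SUZ12, AMD1, MLLT3 and IFT74 were lost, and with a replicate block ATF4 was lost. In the other direction, DESeq2, which called more genes in all, also called genes of these lists that missed the edgeR threshold. They were CCNA2 (DESeq2 adjusted p 0.00229), CDK4 (0.0135), CDK6 (0.0121), TP73 (0.00604), SKP2 (0.0443), EZH2 (0.00743), KDM6B (0.0307) and ADI1 (0.00612). With each library left out in turn, edgeR log2 fold changes ranged from -1.47 to -1.04 for CCNA2 and from -1.12 to -0.95 for EZH2. They ranged from 0.96 to 1.60 for ADI1 and from -1.91 to -1.25 for TP73.

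For each measured member, up to 2 genes of most similar pattern are named, by the Euclidean distance between log2 CPM deviations over the 4 libraries. The closest to CDKN1A were ARIH2OS (distance 0.0084), a gene antisense to ARIH2 whose reads cannot be told from its partner's without strand, and ALDH1L1 (0.124), a folate enzyme. Both were far below CDKN1A in level, at 1.74 and 2.17 CPM on average in Rib_CA. The closest to CDKN3 were TENT4B (0.0351), a poly(A) polymerase, and RMI1 (0.0475), a partner of the BLM helicase. CDKN2D was closest to FAM89A (0.0499) and to NDUFS3 (0.0551), a subunit of respiratory complex I. CDKN1B was closest to TRIM47 (0.0175) and to POLR3A (0.0563), the largest subunit of RNA polymerase III. CDKN1C was closest to SPATA5L1 (0.0231) and EBPL (0.0388). The closest to CDKN2C was EGFLAM (0.0544), which had only 12 to 16 counts in a library. The log2 CPM were taken with a prior count of 2, which shrinks the differences of low-count genes such as EGFLAM and ARIH2OS. None of the 11 genes named here passed edgeR's test, DESeq2 called TENT4B, RMI1 and NDUFS3, and with 4 libraries a close pattern is a description only.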

How the data were processed

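Messenger RNA of 4 MDA-MB-231 libraries was measured, 2 per group. The deposited table holds raw counts that the authors did not normalise, whole numbers for 20263 human Ensembl genes. The submitters' processing notes name GRCm38 and mm10, both of mouse although the IDs are human, so the build remains unknown. Aligner, counter and strand setting: not given in the sources used here. Of values from 1 to 10, 67.7 to 70.7% were even in each library. Floors assume independent counts, so the true bounds may be higher than those given. They cover counting error only. Symbols were found for 20148 IDs, and gene limits, exonic lengths and GC contents came from GENCODE 29.

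The test was run with edgeR 4.0.16 (R 4.3.3): filterByExpr (minimum count 10, minimum total 15), TMM, glmQLFit (robust) and glmQLFTest with 2 residual degrees of freedom, adjusted by Benjamini-Hochberg over 13667 genes with a threshold of 0.05. The SE is the absolute log2 fold change over the root of F. The members and lists were chosen with earlier results of these data known. Named were all 9 members, up to 4 tested genes of each list with the smallest p, MYC, SKP2, CDK4, CDK6 and CDK2, the 2 nearest patterns of each member, and the 9p genes; some results of this rule are not reported here. Alternatives were DESeq2 1.42.0 and its size factors, total counts alone, no filter, a filter of 5 CPM, the replicate block, each library left out, no mitochondrially encoded genes, counts halved, limma-voom (3.58.1), and an offset for GC content and length smoothed by mgcv 1.9.3 (6 basis functions). That offset is fitted on values that hold the treatment difference, so it removes any part of it that runs along GC content or length. Figures were drawn with matplotlib 3.10.9.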

Additional observations from a re-analysis of the deposited data

How the results depend on the processing

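Precision is limited by 2 libraries per group and 2 residual degrees of freedom. Beside the 974 genes called, edgeR called 588 with total counts alone and 173 to 2868 with a library left out, and DESeq2 called 2450. A lone remaining library is assumed to vary like the other group. After the correction for GC content and length edgeR called 0 genes, with 3403 at an unadjusted p under 0.05; the cause was not tested. Members called higher were 1, 0 with that correction and 0 to 2 with a library left out. Members called lower were 0, 1 with DESeq2 and 0 to 1 with a library left out. The crossed replicate block, added after seeing the data, called 1991 genes, among them 1 member higher and 1 member lower.

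Replicate numbers in the labels are shared between the groups, and the labels do not say whether same-numbered libraries were handled together. Deviations of same-numbered libraries correlated at -0.19 over genes. That value rests on the difference between 2 libraries in each group, so it cannot decide whether they were paired. With the replicate block 947 genes were called, and no member's call changed.

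Over 44 named genes and 611 values under the alternatives, 525 kept their direction and side of the threshold, 49 newly passed, 32 no longer passed and 5 reversed. After the correction for GC content and length PLAA was at 0.14, TRIM47 at -0.078 and FOCAD at 0.12 (log2). With a library left out ODC1 ranged from -0.0195 to 0.98 and CDK2 from -0.43 to 0.049. The causes were not tested.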
